A study of Mus musculus with 8 samples.

Results

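A set of 10 genes of axon-glia contact was followed in mature mouse oligodendrocytes. They were the 10 listed genes Nfasc, Cntn2, Cadm4, Omg, Rtn4, Ninj2, Hapln2, Lgi3, Jam3 and Ermn, taken by symbol from the 18833 genes of the deposited oligodendrocyte matrix, and all 10 were present. Levels were described per library and per oligodendrocyte cluster, and compared between KO and WT mice and between hippocampus and cortex. The rule that lists them uses gene names and no expression threshold.

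The study asked how oligodendrocytes differ when microglia are absent. KO mice carried a homozygous deletion of the Fms intronic regulatory element (Fire), an enhancer of the microglial growth factor receptor gene Csf1r (Fire Δ/Δ), and WT mice carried the intact element. All mice were female, on a mixed CBA and C57Bl6J background, and gave 1 hippocampus library and 1 cortex library each, where the tissue labelled cortex was the rest of the left hemisphere without hippocampus, olfactory bulb and cerebellum. WT mouse 1 and KO mouse 3 were 1 month 18 days old, and WT mouse 4 and KO mouse 6 were 1 month 16 days old, so each genotype had 2 mice and 4 libraries. The cells were live sorted cells captured on the 10x Chromium 3′ platform, and the authors assigned each oligodendrocyte to 1 of 4 clusters, Oligo1 to Oligo4.

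Myelinated axons are divided into nodes of Ranvier, where sodium channels cluster, flanking paranodes, where the loops of the myelin sheath attach to the axon, and juxtaparanodes, where potassium channels lie under the sheath. At the paranode the glial form of neurofascin binds the axonal contactin and Caspr pair, while contactin-2 holds the juxtaparanode together, and hyaluronan link proteins shape the matrix at the node. Other contact proteins set the spacing of the sheath along the internode or signal to the axon, including the myelin inhibitors of neurite growth, Nogo and oligodendrocyte myelin glycoprotein.

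Nfasc (ENSMUSG00000026442, GRCm38 chromosome 1, 132564690 to 132741797, minus strand) encodes neurofascin, and Cntn2 (ENSMUSG00000053024, chromosome 1, 132509427 to 132543256, minus strand) encodes contactin-2. The pair are neighbours, with 21433 bases and no annotated gene lying wholly between them. Lgi3 (ENSMUSG00000033595, chromosome 14, 70530685 to 70538324, plus strand) encodes a secreted LGI family ligand of ADAM receptors, and Hapln2 (ENSMUSG00000004894, chromosome 3, 88021750 to 88027583, minus strand) encodes the link protein Bral1 of the perinodal matrix. Cadm4 (ENSMUSG00000054793, chromosome 7, 24482023 to 24504539, plus strand) encodes a nectin-like adhesion molecule of the internode, Jam3 (ENSMUSG00000031990, chromosome 9, 27097384 to 27155421, minus strand) a junctional adhesion molecule, and Ninj2 (ENSMUSG00000041377, chromosome 6, 120093350 to 120200339, plus strand) the adhesion protein ninjurin 2. Omg (ENSMUSG00000049612, chromosome 11, 79500982 to 79504084, minus strand) and Rtn4 (ENSMUSG00000020458, chromosome 11, 29692947 to 29744331, plus strand) encode the growth inhibitors oligodendrocyte myelin glycoprotein and Nogo. Ermn (ENSMUSG00000026830, chromosome 2, 58045113 to 58052864, minus strand) encodes ermin, a myelin protein that binds actin. Omg lies inside Nf1 on the opposite strand, and the end of Rtn4 overlaps the end of Eml6 on the opposite strand. The end of Ermn likewise overlaps the end of Galnt5. Nfasc and Jam3 overlap antisense genes and Ninj2 an snRNA gene, also on the opposite strand. The strand setting of the counting was not given in the sources used here, and 3′ tags do not separate the glial from the neuronal neurofascin form or the 3 Nogo forms from each other.

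Promoter windows of 300 bases, from 250 before to 50 after a transcript start, were held by the RefSeq table (GRCm38.p6) for 7 of the 10 members. Those of Hapln2 and Nfasc are shown because these 2 genes moved in opposite directions across the clusters, and that of Cntn2 because it neighbours Nfasc. Capitals mark matches on either strand to CTGGCAC, a core that the oligodendrocyte factor MYRF can bind, and to the E-box CANNTG. The windows were chr3:88027462-88027761 for Hapln2, chr1:132707277-132707576 and chr1:132642809-132643108 for 2 starts of Nfasc, which lie within the annotated gene, and chr1:132542891-132543190 for Cntn2, all on the minus strand.
Hapln2: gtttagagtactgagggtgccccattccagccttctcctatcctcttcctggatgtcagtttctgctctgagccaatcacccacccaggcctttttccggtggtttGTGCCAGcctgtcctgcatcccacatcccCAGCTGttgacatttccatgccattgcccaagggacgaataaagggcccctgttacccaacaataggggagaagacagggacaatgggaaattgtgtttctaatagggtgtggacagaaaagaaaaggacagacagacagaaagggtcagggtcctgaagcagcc
Nfasc upstream start: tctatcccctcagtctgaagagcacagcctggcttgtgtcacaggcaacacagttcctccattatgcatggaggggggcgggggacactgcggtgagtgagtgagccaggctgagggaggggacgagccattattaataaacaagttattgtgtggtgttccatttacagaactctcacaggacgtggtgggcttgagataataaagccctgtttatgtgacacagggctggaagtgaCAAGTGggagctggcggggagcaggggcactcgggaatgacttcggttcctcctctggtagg
Nfasc downstream start: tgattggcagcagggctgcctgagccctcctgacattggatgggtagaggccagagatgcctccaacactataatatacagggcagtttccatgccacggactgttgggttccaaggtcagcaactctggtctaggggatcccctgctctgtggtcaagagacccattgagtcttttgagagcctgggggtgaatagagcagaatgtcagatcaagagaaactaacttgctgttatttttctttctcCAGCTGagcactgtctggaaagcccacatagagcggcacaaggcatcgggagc
Cntn2: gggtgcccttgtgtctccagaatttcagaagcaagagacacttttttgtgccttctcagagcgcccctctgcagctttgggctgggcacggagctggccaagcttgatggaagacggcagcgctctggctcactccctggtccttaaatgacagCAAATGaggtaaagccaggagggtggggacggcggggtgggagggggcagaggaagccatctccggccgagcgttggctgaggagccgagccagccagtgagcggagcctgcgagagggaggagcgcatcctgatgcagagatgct
The Hapln2 window held 1 match to CTGGCAC and the other 3 held none. Each of the 4 windows held 1 E-box. CTGGCAC was found in 5.01% and CANNTG in 72.3% of 32851 promoters of the same length, and the SOX family core ACAAAG, in 18.7% of them, was not among the letters of these 4 windows. The matches do not overlap each other, and they describe the letters only.

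The matrix held 12581 oligodendrocytes, with 904 to 2784 cells, a median of 9377 to 13725.5 UMIs per cell and a total of 12015518 to 27848236 UMIs per library. The oligodendrocyte markers Mog and Mbp each had a UMI in 100% of cells of every library. Csf1r, the gene whose enhancer was deleted, had a UMI in 5.31% to 10.2% of cells of the WT libraries and in 2, 1, 3 and 0 cells of the KO libraries, where 0 of 904 cells allows a share of up to 0.332%. The summed level of 11 microglia markers was 0.502 to 1.23 normalized UMIs per cell in WT and 0.124 to 0.177 in KO libraries. Over all libraries, the summed level was 3.65 to 4.45 normalized UMIs per cell for 7 newly formed oligodendrocyte markers, 0.0961 to 0.301 for 4 progenitor markers, 0.0772 to 0.167 for 6 neuron markers, 1.44 to 2.19 for 6 astrocyte markers, 0.0367 to 0.168 for 5 endothelial markers and 0.245 to 9.98 for 4 globin genes. In all, 21 cell barcodes occurred in 2 libraries. Of the 1558 Oligo1 cells, 1552 came from KO libraries. Each batch recorded in the deposited cell table held 1 WT and 1 KO library of 1 tissue, so batch and tissue cannot be told apart, whereas KO and WT could be compared within each of 4 batches. The study's methods describe the cortex batch of mice 4 and 6 as of poorer quality.

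The KO cortex library of mouse 3 stood apart in 2 members. Among the 9257 genes detected in 5% of cells or more, 17 had this library lowest by more than 0.3 on the log2 scale, against 0 to 2 such genes in each of the other libraries. Rtn4 had the largest of these gaps of all 9257 genes and Cadm4 ranked 13th. The differences of these 2 genes between groups are therefore given with and without that library.

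Across clusters, Hapln2 on one side and Nfasc and Lgi3 on the other ran in opposite directions. Values are means over cells of the deposited log2 level, log2(normalized UMIs + 1), for each library with at least 20 cells of the cluster. Because the authors derived the clusters from this same matrix, differences between clusters are described without a test. From Oligo2 to Oligo3 to Oligo4, the level of Nfasc, Ninj2 and Lgi3 rose and that of Hapln2 and Ermn fell in every one of 8 libraries. Of all 9342 genes measured in these clusters, 3.04% rose and 3.34% fell in this manner.

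Hapln2 had a mean log2 level of 1.95 to 2.16 (median 2.03) in the 8 Oligo2 values, 1.00 to 1.25 (median 1.17) in Oligo3 and 0.16 to 0.42 (median 0.27) in Oligo4. No library of one cluster reached the range of the next. Within libraries, Oligo4 minus Oligo2 was −1.77 (SD 0.07, n = 8), with 3.49 normalized UMIs per cell in Oligo2 and 0.268 in Oligo4 on the linear scale. Nearly all Oligo2 cells carried a Hapln2 UMI, 97.4% to 99.3% by library, against 18.1% to 48.6% of Oligo4 cells. The lowest Oligo4 share came from 27 of 149 cells in WT hippocampus mouse 1 (95% exact Clopper-Pearson interval 12.3% to 25.3%). Oligo4 cells were the deeper ones, with a median of 12718.5 UMIs against 11952.5 in Oligo2, and when every cell was thinned to 5000 UMIs the shares were 85.3% to 89.4% in Oligo2 and 8.62% to 22.6% in Oligo4. The matrix held oligodendrocytes alone, so the share that free RNA gives in cells lacking the gene was not measured. In the 4 KO libraries with at least 20 Oligo1 cells, Oligo1 had Hapln2 levels of 0.98 to 1.11, below Oligo3 of the same library in each and above Oligo4 in each.

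Nfasc and Lgi3 went the other way, and Cntn2 did not. Nfasc had log2 levels of 1.38 to 1.64 (median 1.50) in Oligo2, 1.71 to 2.04 (median 1.88) in Oligo3 and 2.11 to 2.47 (median 2.20) in Oligo4. Oligo4 exceeded Oligo2 by 0.74 (SD 0.07, n = 8), which is 4.17 against 2.11 normalized UMIs per cell. Lgi3 rose from 1.24 to 1.39 (median 1.33) in Oligo2 through 1.72 to 2.04 (median 1.87) in Oligo3 to 2.06 to 2.31 (median 2.16) in Oligo4. Neither gene had an Oligo4 library as low as any Oligo2 library. Cntn2, the neighbour of Nfasc, did not share its order, with 2.27 to 2.79 in Oligo2, 2.27 to 2.71 in Oligo3 and 2.19 to 2.52 in Oligo4. Its Oligo4 level was lower than its Oligo2 level in 8 of 8 libraries, with a mean difference of −0.13 (SD 0.07), although the ranges of the clusters overlapped.

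Among the adhesion genes, Ninj2 rose from 0.25 to 0.52 (median 0.41) in Oligo2 to 0.64 to 0.80 (median 0.73) in Oligo4, without overlap. The share of cells with a Ninj2 UMI was 26.7% to 54.7% in Oligo2 and 60.8% to 72.3% in Oligo4, and after thinning to 5000 UMIs it was 14.4% to 27.4% and 33.2% to 41.6%. Jam3 was level between Oligo2 (1.85 to 2.08) and Oligo3 (1.88 to 2.07) and higher in Oligo4 (2.10 to 2.30), by 0.25 over Oligo2 (SD 0.04, n = 8). Cadm4 differed little between clusters, with an Oligo4 excess over Oligo2 of 0.10 (SD 0.05) that was seen in 7 of 8 libraries. Of Oligo2, Oligo3 and Oligo4, the last had the highest median level of all 3 adhesion genes, with overlapping ranges for Cadm4.

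Of the growth inhibitors, Omg was highest in Oligo2 (1.16 to 1.51, median 1.26) and lower in Oligo4 (0.85 to 1.22, median 1.02) in 8 of 8 libraries, with a mean difference of −0.26 (SD 0.08). Rtn4 lay between 3.96 and 4.19 in Oligo2 and between 3.84 and 4.11 in Oligo4 once the KO cortex library of mouse 3 was left aside. That library had Rtn4 levels of 3.32 in Oligo1, 3.32 in Oligo2, 3.26 in Oligo3 and 3.08 in Oligo4, so the low value was not tied to 1 cluster. Ermn fell from 4.30 to 4.68 (median 4.46) in Oligo2 to 4.04 to 4.30 (median 4.12) in Oligo4, a difference of −0.34 (SD 0.05, n = 8). Rtn4 and Ermn each had a UMI in 100% of cells of every cluster and library.

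Set side by side, 4 members (Nfasc, Ninj2, Lgi3 and Jam3) had all Oligo4 libraries above all Oligo2 libraries and 2 (Hapln2 and Ermn) had all of them below. The same was true of 4.25% and 5.58% of 9408 genes. Oligo1 was measured in KO libraries, so its values carry genotype and cluster together. Its Nfasc and Lgi3 levels were 1.77 to 1.98 and 1.74 to 2.07, near those of Oligo3 in the same libraries, with mean differences of 0.03 (SD 0.05, n = 4) and 0.04 (SD 0.02, n = 4). Its Ninj2 level of 0.58 to 0.77 lay above Oligo3 in 4 of 4 libraries, by 0.13 (SD 0.03), and its Omg level of 0.84 to 1.22 lay below Oligo2 in 4 of 4, with a difference of −0.31 (SD 0.02).

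**Figure D1:**
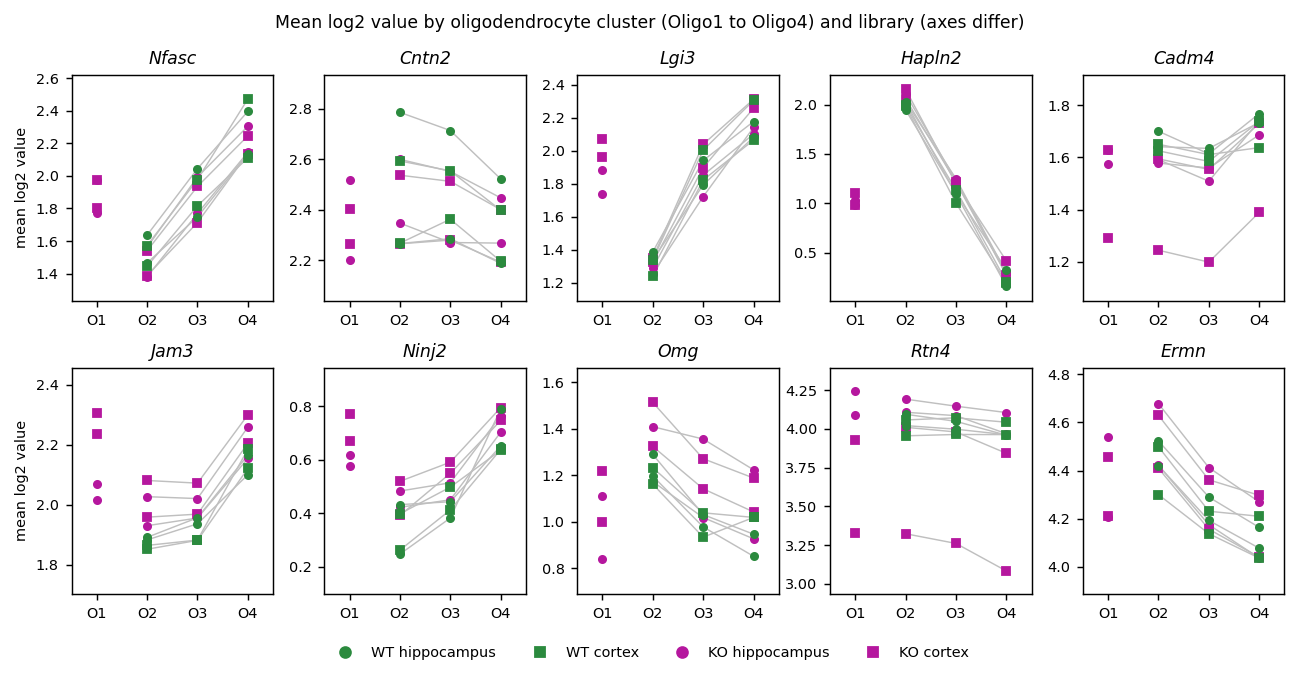
Mean log2 level (vertical axis, log2 of normalized UMIs + 1, a separate range in each panel) of the 10 genes in clusters Oligo1 to Oligo4 (horizontal axis); each point is 1 library with at least 20 cells of the cluster, and grey lines join Oligo2, Oligo3 and Oligo4 of 1 library. Hapln2 falls from 1.95 to 2.16 in Oligo2 to 0.16 to 0.42 in Oligo4, Nfasc and Lgi3 rise, and 1 KO cortex library lies apart in Cadm4 and Rtn4.

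The genes whose levels ran most like each member were taken over 28 library by cluster means, as a description with Pearson's r; these means share cells' libraries, depth and clusters. Hapln2 ran most like Anln (r = 0.99), which encodes the septin scaffold anillin of myelin, and Rasgrp3 (0.98). Nfasc ran most like Ank3 (0.98), which encodes ankyrin-G, and Clic4 (0.96). For Lgi3 these were Mcam (0.97) and Tmod1 (0.97), and for Ermn Gjb1 (0.95), which encodes the gap junction protein connexin 32, and Stmn4 (0.93). Ninj2 and Jam3 were in each other's lists (0.91), with Cd82 (0.91) for Ninj2 and Hs3st1 (0.92) for Jam3. The genes were Setd7 (0.92) and Slc24a2 (0.90) for Cntn2, and Map7d2 and Folh1 (both 0.83) for Omg. For Rtn4 they were Dapk3 and Akirin2 (both 0.93) and for Cadm4 Ppp2ca (0.94) and Pdcd7 (0.91), where the points of the KO cortex library of mouse 3 lie apart. Within the set, the lowest r was −0.94, between Hapln2 and Lgi3.

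No member differed between KO and WT at an adjusted p of 0.05 in limma over mice, in all oligodendrocytes or within Oligo2, Oligo3 or Oligo4. The mouse was the replicate, and the mean of its 2 tissues entered the test. None of the tested genes passed either, 0.0% of 9257 in all oligodendrocytes, 9292 in Oligo2, 9135 in Oligo3 and 9381 in Oligo4. At an unadjusted p under 0.05 there were 209 genes in all oligodendrocytes, 1 of them a member, and edgeR on summed UMIs called 8 genes, none a member. With 2 mice against 2, an exact two-sided permutation test cannot give a p below 0.333. In KO, 5 of the 10 members had a higher mean and 5 a lower one, and the median difference was 0.04 for the members and 0.00 for all genes.

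Jam3, Ninj2 and Cadm4 had KO and WT libraries that did not overlap, the first 2 higher and Cadm4 lower in KO. Of all tested genes, 2.78% were higher and 1.35% lower in KO without overlap. The Jam3 log2 levels were 2.06 and 2.12 in hippocampus and cortex of KO mouse 3, 1.99 and 2.01 in KO mouse 6, 1.96 and 1.89 in WT mouse 1 and 1.95 and 1.90 in WT mouse 4. Within batches KO exceeded WT by 0.10, 0.23, 0.04 and 0.12. In limma the difference was 0.12 (SE 0.03), with an unadjusted p of 0.0340 and an adjusted p of 1.00. Ninj2 stood at 0.57 and 0.61 in KO mouse 3, 0.51 and 0.54 in KO mouse 6, 0.39 and 0.38 in WT mouse 1 and 0.47 and 0.49 in WT mouse 4. KO mouse 6 lay just above WT mouse 4, and the within-batch differences of 0.18, 0.22, 0.04 and 0.05 were largest in the pair of mice 3 and 1. The limma difference of Ninj2 was 0.12 (SE 0.05, adjusted p 1.00). Oligo1, nearly absent from WT, lay above Oligo3 in 4 of 4 KO libraries for both genes, by 0.15 for Jam3 and 0.13 for Ninj2. Without the Oligo1 cells, KO minus WT was 0.11 (SE 0.03) for Jam3 and 0.10 (SE 0.04) for Ninj2. The log2(normalized UMIs + 1) scale shrinks differences of genes at low levels. On summed UMIs, the log2 fold in edgeR was 0.40 for Ninj2 and 0.14 for Jam3.

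Cadm4 stood at 1.56 and 1.23 in hippocampus and cortex of KO mouse 3, 1.60 and 1.59 in KO mouse 6, 1.64 and 1.62 in WT mouse 1 and 1.65 and 1.61 in WT mouse 4. Apart from the KO cortex library of mouse 3, all levels fell within 0.1 of each other. The nearest were 1.596 in KO mouse 6 hippocampus and 1.605 in WT mouse 4 cortex. The difference was −0.13 (SE 0.08) with that library and −0.05 (SE 0.02) without it, and both had a limma adjusted p of 1.00. Within batches KO minus WT was −0.07, −0.39, −0.05 and −0.02. The Rtn4 levels were 4.18 and 3.28 in KO mouse 3, 4.07 and 3.97 in KO mouse 6, 4.05 and 4.07 in WT mouse 1 and 4.00 and 3.96 in WT mouse 4. On the linear scale the KO cortex library of mouse 3 had 0.568 times the median Rtn4 level of the other libraries, and 0.665 times that of Cadm4. For Rtn4 the sign turned on this library, with KO minus WT at −0.14 (SE 0.12) with it and 0.08 (SE 0.07) without it, and 3 of 4 batches had KO above WT, by 0.13, 0.08 and 0.01.

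Hapln2 was higher in KO in all 4 batches within Oligo2 and within Oligo3. In Oligo3 the log2 levels were 1.25 and 1.21 in hippocampus and cortex of KO mouse 3, 1.23 and 1.20 in KO mouse 6, 1.10 and 1.14 in WT mouse 1 and 1.10 and 1.00 in WT mouse 4. The KO libraries lay above the WT libraries without overlap there, and also in Oligo2, where they were at 2.03 to 2.16 against 1.95 to 2.03 and the nearest libraries were less than 0.01 apart. The Oligo3 difference was 0.14 (SE 0.03), with KO above WT by 0.15, 0.08, 0.13 and 0.20 within batches and an unadjusted limma p of 0.0125 that became 1.00 on adjustment. Differences of 0.10 (SE 0.04) in Oligo2 and 0.09 (SE 0.04) in Oligo4 also had adjusted p of 1.00. In Oligo4, where the Hapln2 level was low, the log2 fold on summed UMIs in edgeR was 0.45. Over all oligodendrocytes the ranges overlapped, at 1.20 to 1.38 in KO and 1.11 to 1.31 in WT. The difference was 0.09 (SE 0.04), or 0.15 without the Oligo1 cells and 0.04 without the KO cortex library of mouse 3. In the last of these fits, KO mouse 3 entered by its hippocampus library alone, at 1.20. Its cortex library was at 1.38, near the 1.35 of the cortex library of KO mouse 6.

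Jam3 in Oligo2 was also higher in KO without overlap, at 1.93 to 2.08 against 1.85 to 1.89, and Cadm4 was lower in KO without overlap in Oligo2, at 1.24 to 1.59 against 1.63 to 1.70, and in Oligo3, at 1.20 to 1.56 against 1.58 to 1.63. The shares of all tested genes higher and lower in KO without overlap were 1.44% and 1.13% in Oligo2, 1.14% and 0.788% in Oligo3, and 1.77% and 1.8% in Oligo4, where no member had this pattern. With and without the KO cortex library of mouse 3, KO minus WT for Cadm4 was −0.15 and −0.066 in Oligo2, −0.16 and −0.078 in Oligo3, and −0.08 and 0.0046 in Oligo4. Jam3 was above WT in all 4 batches in each of the 3 clusters, with differences of 0.13 (SE 0.04) in Oligo2, 0.09 (SE 0.03) in Oligo3 and 0.09 (SE 0.05) in Oligo4. Ninj2 differences were 0.12 (SE 0.07), 0.09 (SE 0.04) and 0.07 (SE 0.04), and KO was lower in both batches of mice 6 and 4 in Oligo2 (−0.01 each) and in the hippocampus batch of mice 3 and 1 in Oligo4 (−0.03). None of these passed the test.

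Omg, the growth inhibitor anchored to the oligodendrocyte surface, differed between the KO mice. Its log2 levels were 0.98 and 1.16 in hippocampus and cortex of KO mouse 3, 1.29 and 1.32 in KO mouse 6, 1.00 and 1.08 in WT mouse 1 and 1.07 and 0.98 in WT mouse 4. KO mouse 6 lay above every WT library, while KO mouse 3 straddled them, and KO minus WT was −0.03, 0.08, 0.22 and 0.34 within batches. The difference was 0.15 (SE 0.09) in all oligodendrocytes, 0.13 (SE 0.08) in Oligo2, 0.20 (SE 0.09) in Oligo3 and 0.14 (SE 0.08) in Oligo4. Without the Oligo1 cells it was 0.19 (SE 0.09). Within Oligo3, KO was above WT in all 4 batches, by 0.04, 0.10, 0.33 and 0.34. Within Oligo4 it was above in all 4 as well, by 0.08, 0.02, 0.28 and 0.17. Of all genes tested there, 8.43% in Oligo3 and 7.58% in Oligo4 had this pattern. In Oligo2, KO was above WT in 3 of 4 batches. Ermn ranged from 4.21 to 4.48 in KO and from 4.16 to 4.32 in WT, with a difference of 0.09 (SE 0.11). Over all oligodendrocytes, 3 members (Ninj2, Hapln2 and Jam3) were higher and 2 (Cntn2 and Cadm4) lower in KO in all 4 batches. Of all tested genes, 13.4% were higher and 9.9% lower in this manner.

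**Figure D2:**
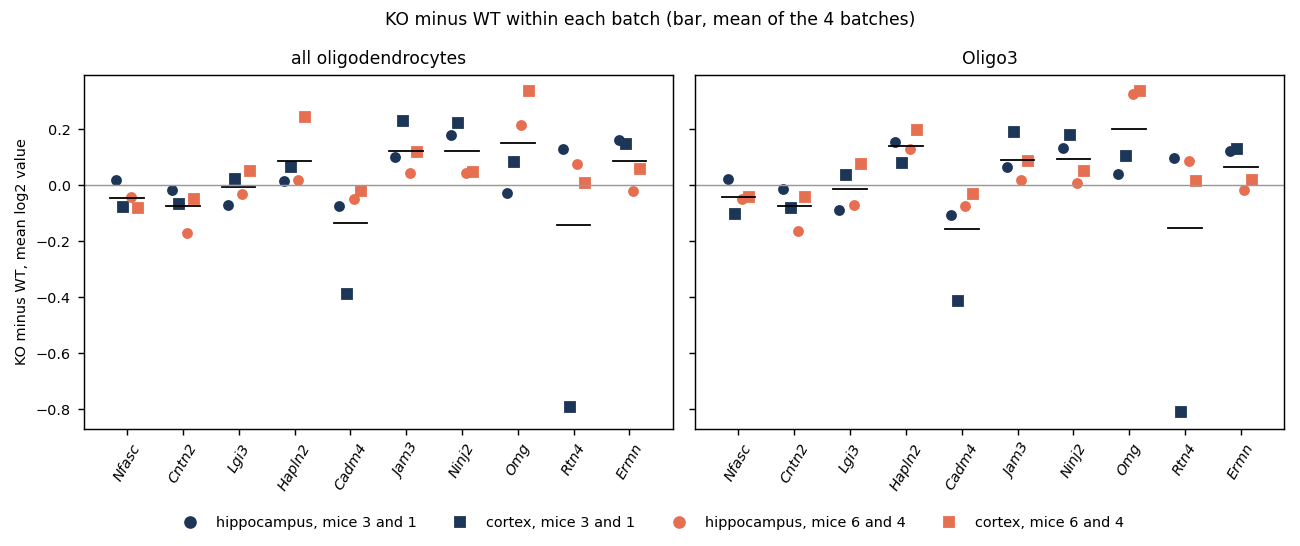
KO minus WT difference of mean log2 level (vertical axis) of each gene (horizontal axis) within each of the 4 batches, in all oligodendrocytes (left) and Oligo3 (right); points are 1 KO library minus the WT library of its batch, and bars are the mean of the 4. Jam3, Ninj2 and Hapln2 have all 4 points above 0 on both sides, and Rtn4 and Cadm4 have 1 point, −0.79 and −0.39 on the left, far below the rest.

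Nfasc and Cntn2 differed more between the pairs of mice than between the genotypes. The Nfasc log2 levels were 1.73 and 1.74 in hippocampus and cortex of WT mouse 1, 1.75 and 1.66 in KO mouse 3, 2.003 and 1.95 in WT mouse 4 and 1.96 and 1.87 in KO mouse 6. Those of Cntn2 were 2.28 and 2.34 in WT mouse 1, 2.26 and 2.27 in KO mouse 3, 2.71 and 2.55 in WT mouse 4 and 2.54 and 2.50 in KO mouse 6. For both genes each library of mice 4 and 6 lay above each library of mice 1 and 3, with mean differences of 0.23 and 0.29, the 73rd and the 33rd highest of 9257 genes. Lgi3 and Ermn lay the other way, with differences of −0.11 and −0.18. These 2 directions without overlap were common, with 19.4% of all tested genes higher and 14.2% lower in mice 4 and 6. The pairs differ by 2 days of age, by batch and by animal, which cannot be told apart here. KO minus WT was −0.05 (SE 0.13) for Nfasc and −0.07 (SE 0.16) for Cntn2, with intervals from −0.43 to 0.34 and from −0.56 to 0.41, and the limma adjusted p was 1.00 for both. The spread between the pairs of mice enters these SE. With mice of the same age as a block in limma, the SE was 0.01 and 0.02. The unadjusted p of the block fit was 0.0447 and 0.0547, and the adjusted p 0.466 and 0.487. In that fit 970 genes had an unadjusted p under 0.05, against 209 without the block.

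**Figure D3:**
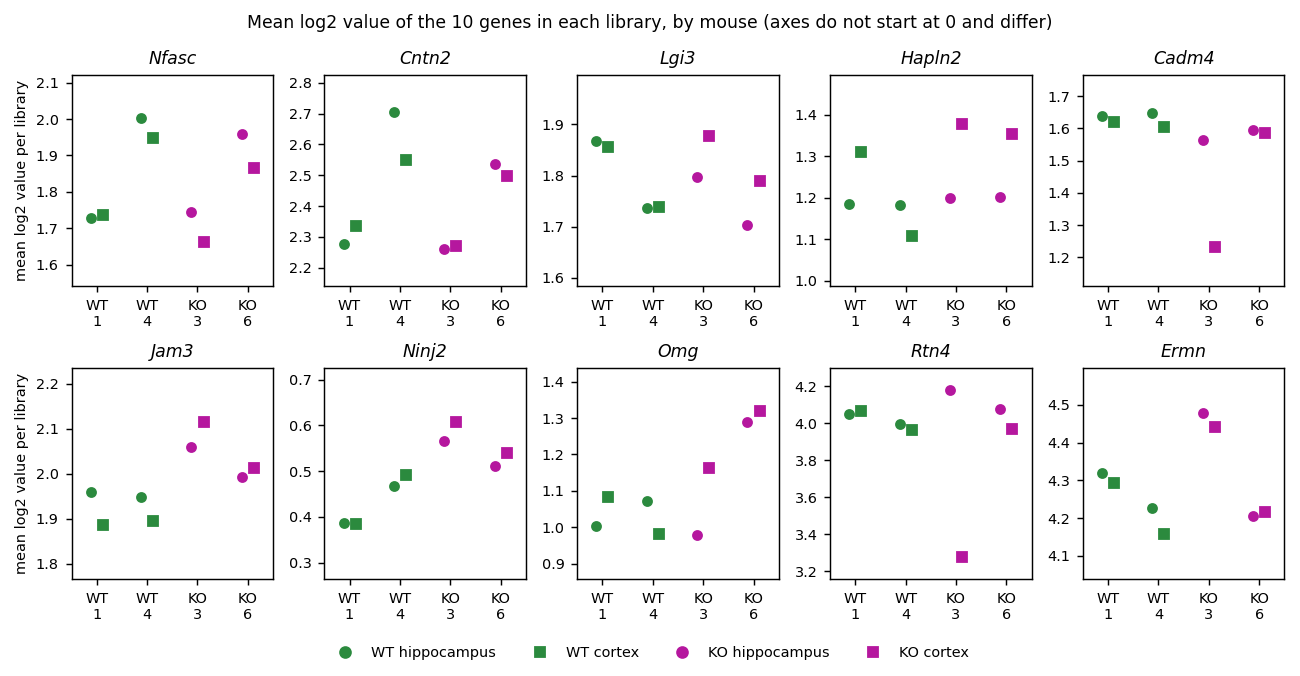
Mean log2 level (vertical axis, log2 of normalized UMIs + 1, a separate range in each panel that does not start at 0) of the 10 genes in each library, ordered by mouse (horizontal axis: genotype and mouse number), circles for hippocampus and squares for cortex. Nfasc and Cntn2 are higher in mice 4 and 6 than in mice 1 and 3 of either genotype, Jam3 and Ninj2 are higher in the KO mice, and the cortex library of KO mouse 3 lies at 3.28 for Rtn4 and 1.23 for Cadm4.

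Hippocampus and cortex did not differ for any member at an adjusted p of 0.05 in limma over 8 libraries, either in all oligodendrocytes or within Oligo2, Oligo3 or Oligo4, and neither did any other gene (0.0% of those tested), with 490 genes at an unadjusted p under 0.05 in all oligodendrocytes, none of them a member, and 0 called by edgeR. In hippocampus, 6 members had a higher mean and 4 a lower one, with a median difference of 0.02. Rtn4 had the largest difference, 0.26 (SE 0.17, limma adjusted p 0.999), and this was 0.07 (SE 0.05) without the KO cortex library of mouse 3. Within mice, hippocampus minus cortex for Rtn4 was −0.02 in mouse 1, 0.90 in mouse 3, 0.03 in mouse 4 and 0.10 in mouse 6. Cadm4 was the member higher in hippocampus in all 4 mice, by 0.02, 0.33, 0.04 and 0.01, and none was lower in all 4. The corresponding shares of all tested genes were 6.78% higher and 18.6% lower. Without that library the Cadm4 difference went from 0.10 (SE 0.08) to 0.01 (SE 0.01). None of these fits paired the tissues of a mouse. With the mouse as a block in limma, 1450 genes had an unadjusted p under 0.05 in all oligodendrocytes, against 490 without it. They included Nfasc (0.06, SE 0.02, unadjusted limma p 0.0355, adjusted p 0.282), and no gene passed adjustment.

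Hapln2 was lower in hippocampus by 0.09 (SE 0.05) over all oligodendrocytes, with −0.13, −0.18, 0.07 and −0.15 in mice 1, 3, 4 and 6, and this was not seen inside clusters, where the difference was −0.02 (SE 0.03) in Oligo2, 0.03 (SE 0.03) in Oligo3 and −0.01 (SE 0.05) in Oligo4. Lgi3 and Ninj2 were lower in hippocampus in all 4 mice in Oligo3, which holds most of the cells. The Lgi3 levels there were 1.94 in hippocampus and 2.004 in cortex of mouse 1, 1.85 and 2.04 in mouse 3, 1.79 and 1.82 in mouse 4 and 1.72 and 1.90 in mouse 6. The Ninj2 levels were 0.38 and 0.41, 0.51 and 0.59, 0.44 and 0.50, and 0.45 and 0.55 in the same order of mice. The gap between tissues was wider in the KO mice for both genes, and the differences were −0.11 (SE 0.07) and −0.07 (SE 0.03), with a limma adjusted p of 1.00 each. That fit did not pair the tissues of a mouse. With the mouse as a block in limma, the SE was 0.03 for Lgi3 and 0.01 for Ninj2. The unadjusted p of the block fit was 0.0138 and 0.00402, and the adjusted p 0.244 and 0.188. In Oligo2 and Oligo4, without the block, the difference was 0.0051 (SE 0.04) and −0.11 (SE 0.06) for Lgi3 and 0.0034 (SE 0.05) and 0.023 (SE 0.04) for Ninj2. Cadm4 and Ermn were higher in hippocampus in all 4 mice in Oligo3. The Cadm4 difference there was 0.09 with the KO cortex library of mouse 3 and 0.0079 without it. That of Ermn was 0.05 (SE 0.07) with it and 0.09 without it. With the mouse as a block, the Ermn SE was 0.01, with an unadjusted limma p of 0.00512 and an adjusted p of 0.190. In Oligo3, 2 members were higher and 2 lower in hippocampus in all 4 mice, as were 5.98% and 16.9% of all genes tested there. The lower pattern was thus common among all genes. In Oligo2, Rtn4 and Ermn were higher in hippocampus in all 4 mice and 0 members were lower, against 5.76% and 14.6% of all genes. The Rtn4 difference there was 0.27 with the KO cortex library of mouse 3 and 0.09 without it. In Oligo4, 0 members were higher and 1, Jam3, was lower in all 4 mice, against 5.81% and 10.7%.

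The genotype effect was also compared between tissues, as the KO minus WT difference of hippocampus minus cortex per mouse. No member and no other gene passed in limma (0.0% of 9257), and 574 genes, 2 of them members, had an unadjusted p under 0.05. For Lgi3, hippocampus minus cortex was 0.011 and −0.0023 in WT mice 1 and 4 and −0.08 and −0.09 in KO mice 3 and 6. For Jam3 it was 0.07 and 0.05 in the WT mice and −0.06 and −0.02 in the KO mice. The difference between genotypes was −0.09 (SE 0.01) for Lgi3 and −0.10 (SE 0.02) for Jam3, with unadjusted limma p of 0.00290 and 0.00643 and an adjusted p of 0.792 for both. That of Rtn4 was 0.49 (SE 0.29, adjusted p 0.828) and was 0.094 without KO mouse 3.

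**Figure D4:**
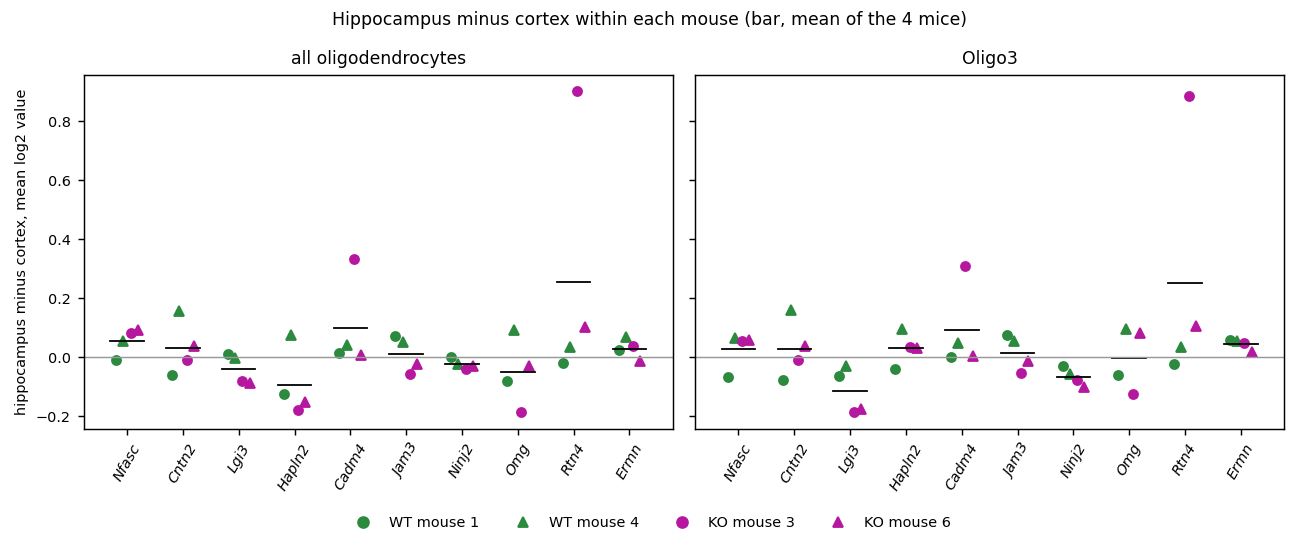
Hippocampus minus cortex difference of mean log2 level (vertical axis) of each gene (horizontal axis) within each of the 4 mice, in all oligodendrocytes (left) and Oligo3 (right); points are single mice and bars their mean. Most points lie within 0.2 of 0, the Rtn4 point of KO mouse 3 is at 0.90 on the left, and Lgi3 and Ninj2 have all points below 0 in Oligo3.

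Of 50 other genes of the same structures, listed by role, 49 were in the matrix and 31 were detected in 5% of cells or more. None of the 31 passed the limma threshold between KO and WT or between tissues. At an unadjusted limma p under 0.05 there were 5 of the 31 between KO and WT, against 2.26% of all tested genes. Between tissues there was 1 of the 31, against 5.29%. The lists were chosen with earlier results of these data known. Between KO and WT, 15 were higher and 16 lower. By list, 6 were higher and 4 lower of 10 tested genes of the paranodal junction and its scaffold, 2 and 3 of 5 at the juxtaparanode and among LGI partners, 5 and 6 of 11 other adhesion and junction genes, 1 and 1 of 2 reticulon and Nogo receptor genes, and 1 and 1 of 2 linkers of membrane to actin, and the 1 tested gene of the perinodal matrix was lower. The largest KO differences were in Cldn11, the tight junction protein of the myelin sheath, and Ank3. Cldn11 was at 4.93 to 5.12 in KO and 4.60 to 4.91 in WT libraries, without overlap (difference 0.29, SE 0.09, limma adjusted p 1.00), and Ank3 at 2.18 to 2.62 and 2.38 to 2.77 (difference −0.18, SE 0.20, adjusted p 1.00). Between tissues 14 were higher and 17 lower in hippocampus, with the largest differences in the spectrin gene Sptbn1 (0.13, SE 0.10) and the potassium channel gene Kcna1 (−0.11, SE 0.10), both at a limma adjusted p of 0.999.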

How the data were processed

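Single-cell 3′ libraries from hippocampus and cortex of 4 mice (8 libraries) were used. The authors aligned reads with Cell Ranger 5.0.0 to mm10, kept cells with UMI counts of at least 5000 and at most 10 percent mitochondrial reads, and deposited log2 values, log2(UMI count / size factor + 1), for 12581 oligodendrocytes with their clusters. Their deposited cell table gives UMI and gene counts and the mitochondrial percent of each cell. The paper also left out a small cluster of lower-quality cells. It counts more cells and genes than the deposited matrix held. Recovered UMI counts were whole within 0.001 for 100% of values above 0. No doublet caller was run here. The authors set scatter gates at the sort to exclude doublets, and cells caught together in a droplet after the sort were not assessed.

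Cell values were averaged per library and cluster (20 cells or more), and genes detected in 5% of cells or more were tested with limma 3.58.1 (R 4.3.3, Benjamini-Hochberg, threshold 0.05). KO was compared with WT over mouse means, tissues over library means with genotype as covariate. Both libraries of a number came from 1 animal, and the differences between mice correlated across tissues at 0.843 in WT and 0.853 in KO over 9257 genes. edgeR 4.0.16 on UMI sums, other scales, filters and left-out mice were alternatives, and the script was tested on simulated data. Intervals (scipy 1.17.1) cover counting error only. All 10 members were named, with the 2 most like genes and, of the 6 lists, the 2 largest differences per comparison. The members and lists were chosen with earlier results of these data known.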

Additional observations from a re-analysis of the deposited data

Results flagged for a closer look

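In 3 groups of 4 libraries, 1 library lay far from the others by Dixon's criterion at the 95% level, of 40 groups tested. Chance would give about 1 in 20 of independent groups, but these groups share libraries. All 3 came from the KO cortex library of mouse 3, and its Cadm4 value was counted in the KO and in the cortex group. Cadm4 in the KO cortex library of mouse 3 was at 1.23 on the log2 scale, with a gap to the next library of 0.914 of the range among KO libraries and 0.911 among cortex libraries. Rtn4 in the same library was at 3.28, with a gap of 0.867 of the range among cortex libraries. The cause was not tested. Lgi3 was lower in KO than in WT in both hippocampus batches and higher in both cortex batches, and the test of this difference gave −0.087 on the log2 scale and did not pass adjustment (limma, adjusted p 0.792).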

How the results depend on the processing

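No member passed the threshold in any of 88 alternatives, and over all 9 comparisons 806 of 880 alternative values of members kept their direction, while 39 of the 90 member differences reversed in at least 1 alternative. Those the text gives are named here. With the mouse as a replicate block, 0 members and 0 genes passed between tissues, and same-number libraries were from 1 animal. The age block and the mouse as a random block also called 0 members. For KO against WT in all oligodendrocytes, the number of genes past the threshold, 0 as reported, was 2 on the log2(mean + 0.1) scale, 1 with no filter, 6 with limma's trend and robust options, 8 in edgeR and 1 with the mouse as a random block. On that scale and in edgeR it was 2 and 4 in Oligo2, 1 and 3 in Oligo3 and 12 and 25 in Oligo4, and edgeR called 2 genes between tissues in Oligo4.

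KO minus WT reversed to 0.10 for Rtn4 in hippocampus libraries alone and to 0.036 for Lgi3 in cortex libraries alone. Hippocampus minus cortex reversed to 0.0067 for Omg and 0.0042 for Lgi3 in WT libraries alone, to −0.039 for Jam3 in KO libraries alone, and to 0.039 for Hapln2 in Oligo4 on the log2(mean + 0.1) scale. Leaving out 1 mouse, or the KO cortex library of mouse 3, KO minus WT ran from −0.17 to 0.075 for Nfasc, −0.24 to 0.086 for Cntn2, −0.29 to 0.083 for Rtn4, −0.070 to 0.054 for Lgi3, −0.038 to 0.21 for Ermn and −0.16 to 0.0046 for Cadm4 in Oligo4, and hippocampus minus cortex from −0.0098 to 0.063 for Cntn2 and −0.0088 to 0.042 for Jam3, in Oligo2 from −0.0070 to 0.030 for Ninj2 and −0.027 to 0.030 for Lgi3, and in Oligo4 from −0.054 to 0.036 for Hapln2 and −0.019 to 0.046 for Ninj2. The cause was not tested. The settings with 1 tissue alone and without that library were chosen after seeing the data. With a mouse left out, the lone mouse of its genotype was assumed to vary like the others. The count of 6 members without overlap between Oligo2 and Oligo4 was 4 for shares of cells, 5 after thinning and 6 to 7 without 1 mouse.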
